A study of Mus musculus with 4 samples.

Results

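Malat1, Neat1 and Kcnq1ot1 are long noncoding RNAs that stay in the nucleus. They were followed as 3 of the 24411 gene rows of a single-cell RNA-seq table from mouse haematopoietic stem cells (HSC). The 3 rows were taken by name and read in every cell with at least 1000 detected genes, 188 cells in all. The share of a cell's unique molecular identifiers (UMIs) held by each RNA was set against sequencing depth, against spike-in RNA and against Rn45s, the row of the ribosomal RNA precursor. The study's title concerns small nucleolar RNAs of the imprinted Dlk1-Gtl2 locus and how long-term HSC renew themselves. Of the 4 libraries, 2 came from Mat KO mice (44 and 48 cells in replicates 1 and 2) and 2 from wild-type (WT) mice (48 cells each). The labels give bone marrow as the tissue and a FACS sort before single cells were picked by mouth pipette. They do not give the strain, the age, the deleted interval or whether each library is a different animal. P-values therefore reflect the spread among the 4 libraries and nothing more, and part of that spread may be technical.

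Malat1 is one of the most abundant nuclear RNAs of mammalian cells and gathers in nuclear speckles, bodies rich in splicing factors. Neat1 is transcribed next to it, and its long form is the scaffold of paraspeckles, while a short form ends at an upstream polyadenylation site. The 3′ end of Malat1 and of long Neat1 is cut by RNase P rather than polyadenylated, and U-rich stretches fold back on a genome-encoded A-rich tract to form a stabilising triple helix. Kcnq1ot1 is made from the paternal chromosome in antisense to Kcnq1 and silences neighbouring imprinted genes, among them the growth inhibitor Cdkn1c.

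In the GENCODE M21 annotation of GRCm38, the assembly also called mm10, Malat1 is a lincRNA gene of 6983 bases on the minus strand (chr19:5795690-5802672). Neat1 lies 22035 bases from it on the same strand (chr19:5824708-5845478) and spans 20771 bases. Kcnq1ot1, an antisense gene of 93092 bases (chr7:143203458-143296549, minus strand), lies inside Kcnq1, which runs on the plus strand, and covers 1 exon of it. The libraries were primed with oligo-dT, so the 3′ ends of the RNAs are shown, read from the GENCODE M21 transcripts 5′ to 3′. The first pair is the triple-helix region, at chr19:5795982-5796079 for Malat1 and chr19:5824708-5824807 for long Neat1. Capitals mark 3 stretches of 13, 16 and 11 bases that occur in both RNAs in the same order.
Malat1: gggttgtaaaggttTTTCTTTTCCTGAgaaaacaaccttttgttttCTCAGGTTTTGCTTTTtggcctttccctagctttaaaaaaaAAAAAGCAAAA
Neat1: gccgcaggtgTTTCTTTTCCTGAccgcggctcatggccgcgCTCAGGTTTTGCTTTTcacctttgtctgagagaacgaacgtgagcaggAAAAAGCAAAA

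The Malat1 tract holds a run of 12 A, part in lower case above, which ends 298 bases before the annotated 3′ end. It is the only run of 10 or more A in Malat1. Long Neat1 has no run of that length, and its longest is 7. Kcnq1ot1 has 10 such runs, and the longest, of 41 A, is shown with its flanks (chr7:143226916-143227015, run in capitals) because an oligo-dT primer can pair with it.
Kcnq1ot1: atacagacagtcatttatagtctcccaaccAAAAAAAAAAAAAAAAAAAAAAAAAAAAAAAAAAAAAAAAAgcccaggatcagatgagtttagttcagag
Per 10 kb, runs of 10 or more A numbered 1.43 in Malat1, 0 in long Neat1 and 1.07 in Kcnq1ot1, against 0.520 over all GENCODE M21 transcripts. A run of that length occurred in 7.18% of 141767 transcripts. It lay within the final 350 bases in 2.88% of the 127626 transcripts of at least that length. From which stretch each UMI was primed was not tested, since the tables give counts per gene.

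The last 60 bases of the annotated Malat1 transcript, of the short Neat1 form (chr19:5842307-5842366) and of Kcnq1ot1 each hold the polyadenylation signal AATAAA, in capitals below. The signal was searched on the sense strand alone, and 27.2% of the 141515 transcripts of at least 60 bases hold it in their final 60 bases.
Malat1: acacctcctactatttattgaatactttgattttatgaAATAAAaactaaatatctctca
Neat1: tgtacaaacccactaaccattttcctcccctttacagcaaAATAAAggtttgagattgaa
Kcnq1ot1: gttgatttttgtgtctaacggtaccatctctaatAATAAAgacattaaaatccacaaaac

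Summed over kept cells, the depth of Mat KO replicates 1 and 2 was 1900319 and 1768647 UMIs, and that of WT replicates 1 and 2 was 3183279 and 3253608. The median cell had 33613 and 27845 UMIs in the Mat KO libraries, against 53093 and 51437 in the WT libraries. All 18 genes of the HSC marker list had UMIs in every library. The list includes Cd34, Cd48 and Flt3, so its detection does not tell stem cells from progenitors. In 38 cells, markers of another lineage passed a limit that was set after the values were seen: 16 and 7 Mat KO cells by replicate, against 7 and 8 WT cells. The other 150 cells are called lineage-low. Granulocyte and monocyte markers (16 to 19 of 19 with a UMI) summed to 3.68% and 0.601% of UMIs in Mat KO and to 0.732% and 0.355% in WT. B lymphoid markers had a UMI for 12 or 13 of 14 genes in each library. They summed to 0.154% and 0.151% of UMIs in Mat KO and to 0.130% and 0.0665% in WT. The limits marked 19 B lymphoid cells and 15 granulocyte and monocyte cells. These counts are not on one scale, since the limit was 0.2% of UMIs for the former and 2% for the latter. Megakaryocyte markers had a UMI for 5 to 7 of 8 genes. Mast cell and stromal markers were nearly all at 0. Meg3, the Gtl2 RNA of the targeted locus, stood at 18.4 and 32.8 CPM (UMIs scaled to a common library total) in Mat KO, against 52.8 and 47.0 CPM in WT. UMIs counted more than molecules: rare ERCC spike-in species gave 5.18 to 7.37 UMIs per positive well, where lone molecules would give 1.05 to 1.08. Intervals on counts thus span counting error alone and understate the uncertainty.

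Malat1 was the second row by UMIs in every library, behind Rn45s, among 14246 genes with a UMI. Kcnq1ot1 ranked 309 and 193 in the Mat KO libraries, against 176 and 193 in the WT libraries. Neat1 ranked 611 and 679 in the Mat KO libraries, against 231 and 676 in the WT libraries, so WT replicate 1 stood apart. These ranks are of UMIs per gene, not corrected for length, since a UMI stands for a primed end. The Mat KO libraries had 31363 and 28608 Malat1 UMIs by replicate, against 56576 and 45270 in the WT libraries. Kcnq1ot1 had 758 and 1012 UMIs in the Mat KO libraries, against 1979 and 1898 in the WT libraries. Neat1 had 444 and 382 UMIs in the Mat KO libraries, against 1638 and 722 in the WT libraries. The WT counts were higher throughout, as were the WT totals.

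As a share of the cell, Malat1 did not separate the genotypes. In Mat KO replicate 1 it took from 0.447% to 3.77% of a cell's UMIs with a median of 1.91%, and in Mat KO replicate 2 from 0.108% to 3.09% with a median of 1.84%. In WT replicate 1 it took from 0.193% to 4.78% with a median of 2.18%, and in WT replicate 2 from 0.316% to 4.96% with a median of 1.56%. Both Mat KO medians lay between the WT medians, so the groups overlapped. The mean of the library medians was 1.88% ± 0.0478 in Mat KO and 1.87% ± 0.440 in WT (SD, n = 2 each; exact two-sided permutation p = 1). With 2 libraries against 2 this test cannot give a p below 0.333.

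**Figure D1:**
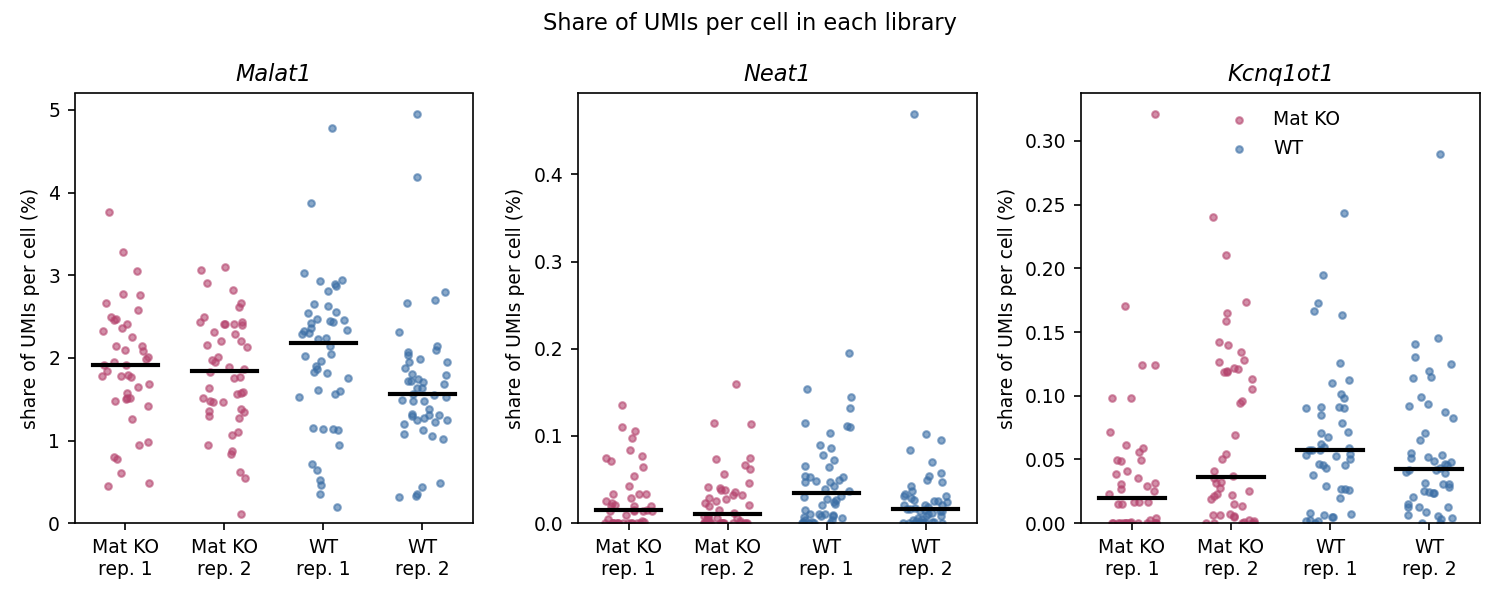
Share of UMIs per cell (%) for Malat1, Neat1 and Kcnq1ot1, with 1 point per kept cell, 1 column per library and a black bar at the library median; the vertical axes differ. The Malat1 medians of the Mat KO libraries lie between those of the WT libraries, while many cells sit at 0 for Neat1 and Kcnq1ot1.

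Library sums gave the same picture for Malat1: 16504 and 16175 CPM in Mat KO, against 17773 and 13914 CPM in WT. Its log2 fold change was 0.08 ± 0.11 (SE; 95% interval -0.17 to 0.33; adjusted p = 0.922, edgeR quasi-likelihood, Benjamini-Hochberg adjustment). The interval covers Mat KO levels from 0.888 to 1.25 times those of WT. The sign turned to -0.095 without WT replicate 2. None of the 3 RNAs passed the threshold of 0.05, where 8 of 10663 genes tested, 0.075%, did, all higher in Mat KO. At an unadjusted p under 0.05 there were 480 genes higher and 354 lower in Mat KO, none of the 3 RNAs among them, and DESeq2 called 98 genes higher and 22 lower.

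Neat1 was lower in Mat KO by its medians, and in library sums the difference rested on 1 WT library. The median share was 0.0156% and 0.0102% in Mat KO, against 0.0344% and 0.0167% in WT (exact permutation p = 0.333). The Mat KO medians were below both WT medians, by a narrow margin to WT replicate 2. In lineage-low cells the groups overlapped, at 0.0195% and 0.0146% in Mat KO, against 0.0392% and 0.0167% in WT (exact permutation p = 0.667). In thinned cells every median but that of WT replicate 1 was 0.0113%, the level of 1 UMI (exact permutation p = 1). In library sums Neat1 stood at 234 and 216 CPM in Mat KO, against 515 and 222 CPM in WT. The groups overlapped there, and WT replicate 1 stood far above the other libraries. The mean was 225 ± 12.5 CPM in Mat KO and 368 ± 207 CPM in WT (SD, n = 2 each). The log2 fold change was -0.68 ± 0.36 (95% interval -1.46 to 0.11; adjusted p = 0.701 by the edgeR test). Without WT replicate 1 it was 0.039, and without WT replicate 2 it was -1.17. A single WT replicate 1 cell held 241 of that library's 1638 Neat1 UMIs, or 14.7%. The leading cell held a like part of Neat1 in the other libraries, from 12.8% in Mat KO replicate 2 to 17.2% in WT replicate 2. With the leading cell left out, the log2 fold change was -0.65.

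Neat1 was found with at least 1 UMI in 31 of the 44 and 32 of the 48 cells of the Mat KO libraries, against 45 of the 48 and 43 of the 48 cells of the WT libraries. These shares are 70.5% (exact binomial 95% interval 54.8 to 83.2) and 66.7% (51.6 to 79.6) in Mat KO, and 93.8% (82.8 to 98.7) and 89.6% (77.3 to 96.5) in WT. When each cell was thinned to 8877 UMIs, which left out 19 shallower cells, the shares were 63.2% and 63.4% in Mat KO, against 78.3% and 61.4% in WT. At equal depth the genotypes overlapped (exact permutation p = 1). The 192 barcodes that were given no cell held no Neat1 UMI, at a median depth of 11 to 21 UMIs per barcode in the 4 libraries.

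Kcnq1ot1 was lower in Mat KO in library sums, within the error of the test, and its fold change was near 0 in the lineage-low cells. It stood at 399 and 572 CPM in Mat KO, against 622 and 583 CPM in WT. The groups did not overlap, which held for 39.1% of all genes tested, and Mat KO replicate 2 lay close to WT replicate 2. The mean was 486 ± 123 CPM in Mat KO and 603 ± 27.1 CPM in WT (SD, n = 2 each). The log2 fold change was -0.28 ± 0.25 (95% interval -0.83 to 0.28; adjusted p = 0.846 by the edgeR test). It was -0.03 without Mat KO replicate 1, -0.59 without Mat KO replicate 2, and 0.013 in lineage-low cells. A single lineage-low cell held 226 of the 758 Kcnq1ot1 UMIs of Mat KO replicate 1, so the lineage-low sum leans on it. With the leading cell left out, over all kept cells, the log2 fold change was -0.41. The library with the lowest Kcnq1ot1, Mat KO replicate 1, was also the one with the most granulocyte and monocyte markers (3.68% of UMIs, values above). This library also had the lowest median Kcnq1ot1 share among lineage-low cells, 0.0261%, and a link to the markers was not tested.

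By cell, the median Kcnq1ot1 share was 0.0201% and 0.0361% in Mat KO, against 0.0572% and 0.0426% in WT (exact permutation p = 0.333). In lineage-low cells it was 0.0261% and 0.0542% in Mat KO, against 0.0591% and 0.0483% in WT, and the groups overlapped. A Kcnq1ot1 UMI was found in 68.2% and 89.6% of cells in the Mat KO libraries, against 97.9% and 95.8% in the WT libraries. After thinning these shares were 52.6% and 78.0% in Mat KO, against 87.0% and 81.8% in WT (exact permutation p = 0.333). Detection thus stayed lower in both Mat KO libraries at equal depth, by a narrow margin between Mat KO replicate 2 and WT replicate 2. The exact binomial intervals, taken as for Neat1, were 35.8 to 69.0% and 62.4 to 89.4% in Mat KO. In WT they were 73.7 to 95.1% and 67.3 to 91.8%, and that of Mat KO replicate 2 overlapped both. How many genes separate the genotypes by thinned detection was not counted. Levels did not stay lower in both Mat KO libraries. The thinned median share was 0.0113% and 0.0563% in Mat KO, against 0.0563% and 0.0451% in WT, and the groups overlapped (exact permutation p = 1). The unthinned mean over cells also overlapped, at 0.0387% and 0.0663% in Mat KO, against 0.0661% and 0.0562% in WT. Kcnq1, the potassium channel gene on the opposite strand, had no UMI in any library. Cdkn1c, the neighbour that Kcnq1ot1 is known to silence, stood at 37.9 and 16.4 CPM in Mat KO, against 36.1 and 10.8 CPM in WT, and the replicates of each genotype differed more than the genotypes did.

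**Figure D2:**
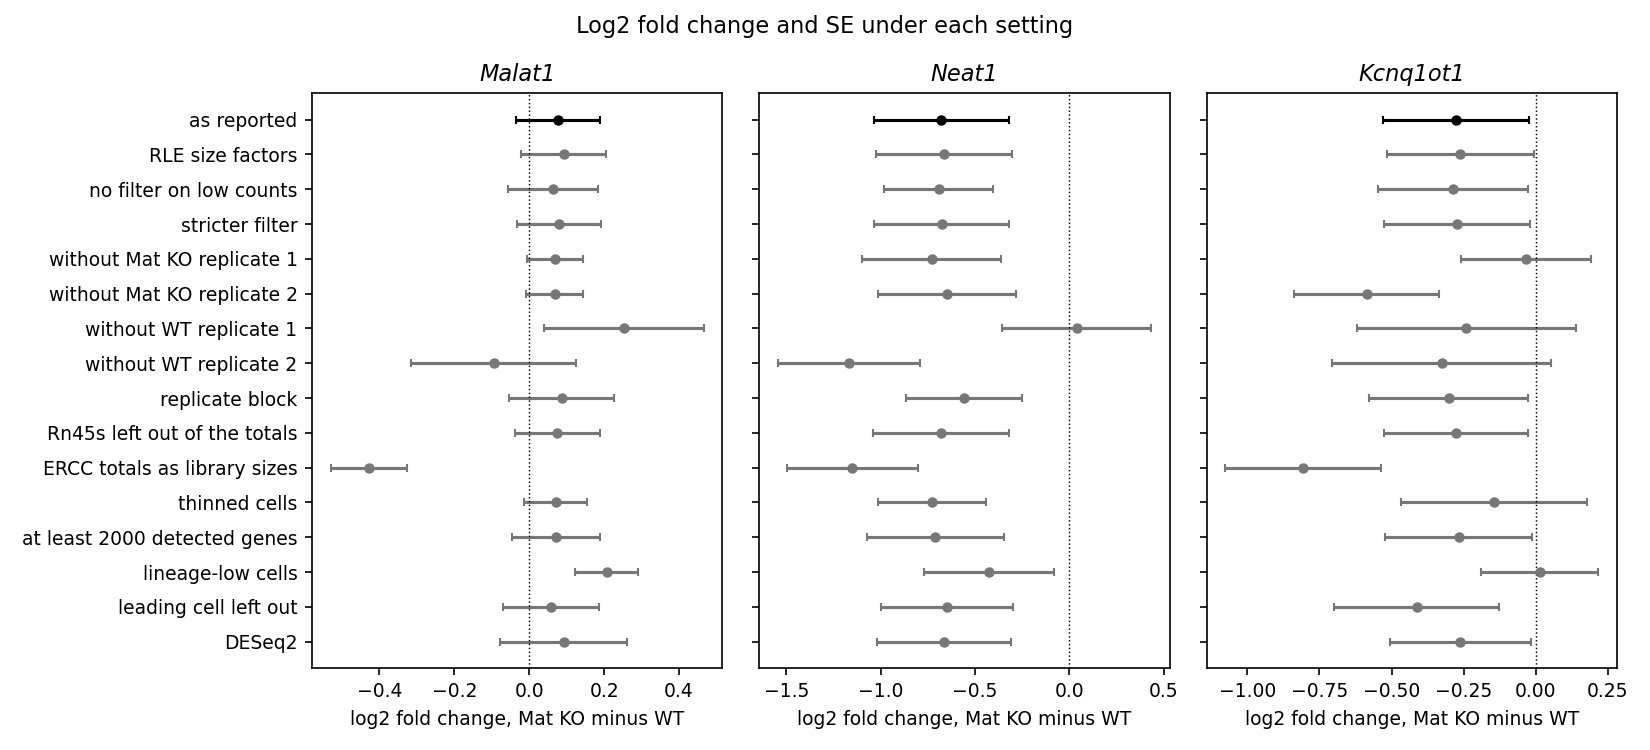
Log2 fold change of Mat KO over WT for Malat1, Neat1 and Kcnq1ot1 (points) with its SE (bars), as reported (black) and under 15 alternatives (grey); a dotted line marks 0. Neat1 moves to 0.039 without WT replicate 1, Kcnq1ot1 to 0.013 in lineage-low cells and Malat1 to -0.43 with ERCC totals as library sizes.

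Against the ERCC spike-in RNA, Mat KO cells held fewer UMIs over all genes. The library median was 0.676 and 0.712 gene UMIs per ERCC UMI in Mat KO, against 0.868 and 1.01 in WT, with no overlap (exact permutation p = 0.333). Malat1 followed, with a median of 12.8 and 11.9 UMIs per 1000 ERCC UMIs in Mat KO, against 16.3 and 16.0 in WT. Both Mat KO libraries were thus below both WT libraries on the spike-in scale, although they were not as a share. Rn45s differed: its medians were 56.4 and 77.1 UMIs per 1000 ERCC UMIs in Mat KO, against 50.8 and 67.8 in WT, and the groups overlapped (exact permutation p = 0.667).

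With ERCC totals as library sizes, the median log2 fold change over all genes moved to -0.52. On that scale Malat1 stood at -0.43 (adjusted p = 0.0736), Neat1 at -1.15 (adjusted p = 0.144) and Kcnq1ot1 at -0.81 (adjusted p = 0.170), all by the edgeR test. Relative to the median of all genes, Malat1 was at 0.09, Neat1 at -0.63, Kcnq1ot1 at -0.29 and Rn45s at 0.73. These are close to the values from UMI totals, which follows largely from the method, since the ERCC scale shifts all genes of a library alike. Rn45s itself held 8.13% and 10.3% of UMIs in the median Mat KO cell, against 5.44% and 6.61% in the median WT cell. Its log2 fold change in library sums was 0.75 ± 0.12 (adjusted p = 0.0759 by the edgeR test), and it passed 0.05 under 7 of 14 alternatives. Rn45s comes from a multi-copy gene, which makes its counts uncertain.

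Over all kept cells, the Malat1 share had a negative coefficient with total UMIs, detected genes and gene UMIs per ERCC UMI in every library. Across the 44 to 48 cells of a library, the Spearman coefficient of the Malat1 share with total UMIs averaged -0.28 and ranged from -0.37 to -0.16. With detected genes it averaged -0.39 (-0.56 to -0.24), and with gene UMIs per ERCC UMI -0.40 (-0.55 to -0.24). In lineage-low cells the coefficient with total UMIs averaged -0.17 (-0.29 to 0.01). The coefficients are descriptions: the cells of a library share its preparation, and the share has the total in its denominator. Among 1692 genes with a UMI in at least 50% of cells in every library, the coefficient with total UMIs had a median of 0.12. Malat1 was the fifth lowest and Rn45s the lowest, at -0.72 (-0.77 to -0.66). Neat1 averaged -0.04, rank 127 from the lowest, and Kcnq1ot1 0.00, rank 225.

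With cells split at the median depth of their library, the median Malat1 share was lower in the deeper cells of 3 libraries. In Mat KO the deeper cells had a median of 1.94% and 1.50%, against 1.87% and 2.18% in the shallower cells. In WT the deeper cells had 1.85% and 1.42%, against 2.31% and 1.70% in the shallower cells. Mat KO replicate 1 was the exception by medians alone. By summed UMIs its deeper cells had the lower share too, 1.57% against 1.98%. Rn45s went lower in all 4, with 6.73%, 8.69%, 4.33% and 4.32% in the deeper cells, against 10.4%, 14.1%, 6.74% and 8.74% in the shallower cells, in the order Mat KO 1 and 2, WT 1 and 2. Despite the shared direction the 2 shares were weakly related, with a mean coefficient of 0.19 (0.07 to 0.30), and in lineage-low cells of 0.00 (-0.25 to 0.14).

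**Figure D3:**
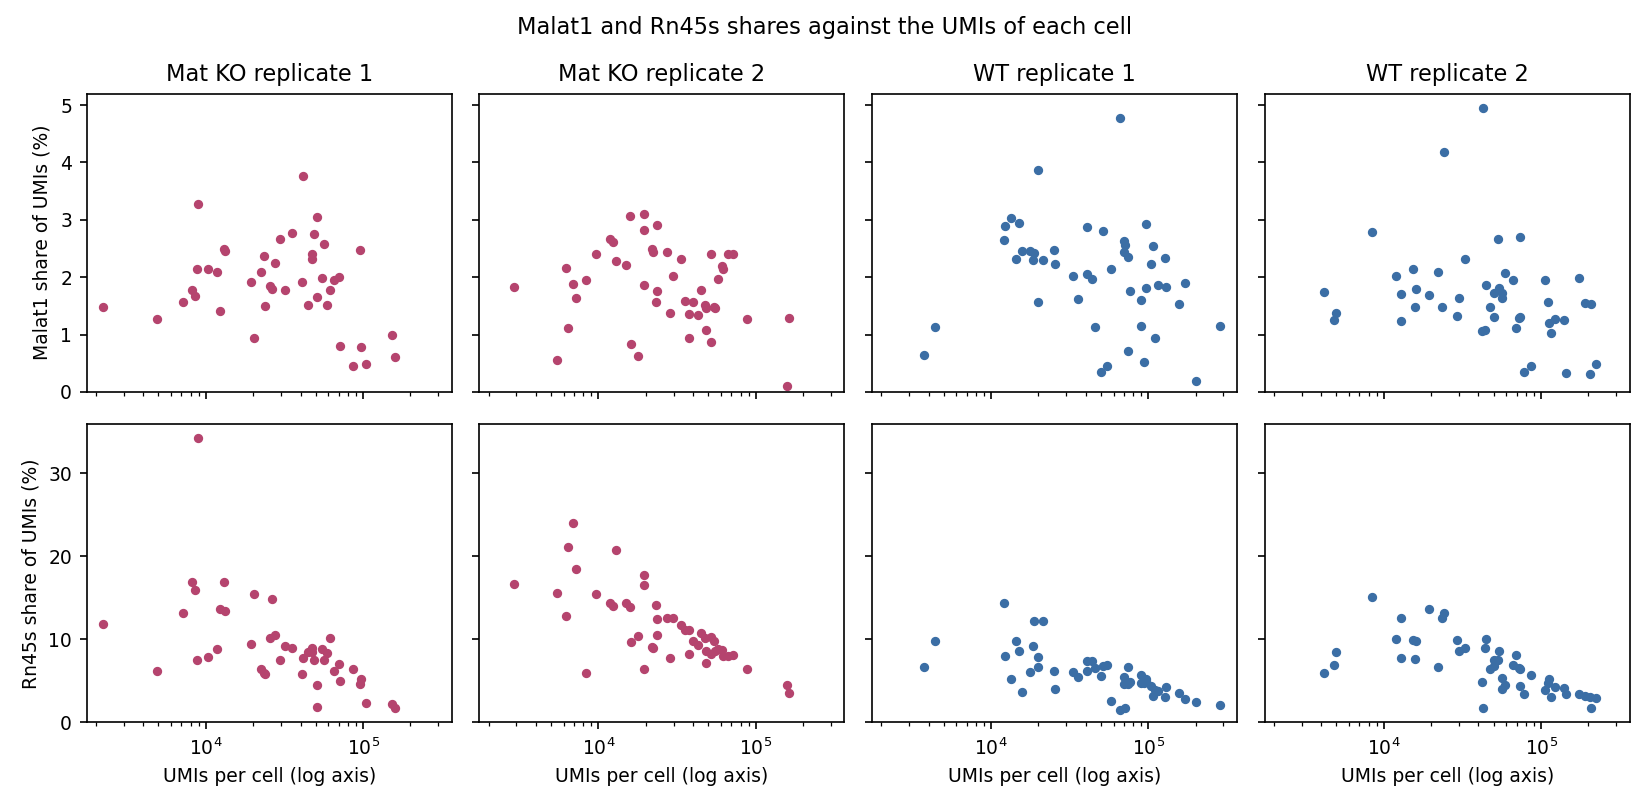
Malat1 share (top) and Rn45s share (bottom) of a cell's UMIs (%) against the UMIs of that cell (log axis), 1 point per kept cell and 1 column per library. The Rn45s share declines with depth in each library, with coefficients from -0.77 to -0.66, and the Malat1 share more loosely, from -0.37 to -0.16.

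The libraries used the same 48 cell barcodes, so that each well's barcode could be compared across the 6 pairs of libraries. ERCC UMIs of the same barcode agreed between libraries with a mean Spearman coefficient of 0.88 (0.82 to 0.94). Total UMIs gave 0.70 and Malat1 UMIs 0.70 (0.63 to 0.79), although the cells behind a barcode were different. The Malat1 share gave 0.09 (-0.02 to 0.26) and the Rn45s share 0.53 (0.34 to 0.68). The Malat1 count thus went with the barcode much as the total did, and its share of the cell did not. The Neat1 share gave 0.10 and the Kcnq1ot1 share -0.08.

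**Figure D4:**
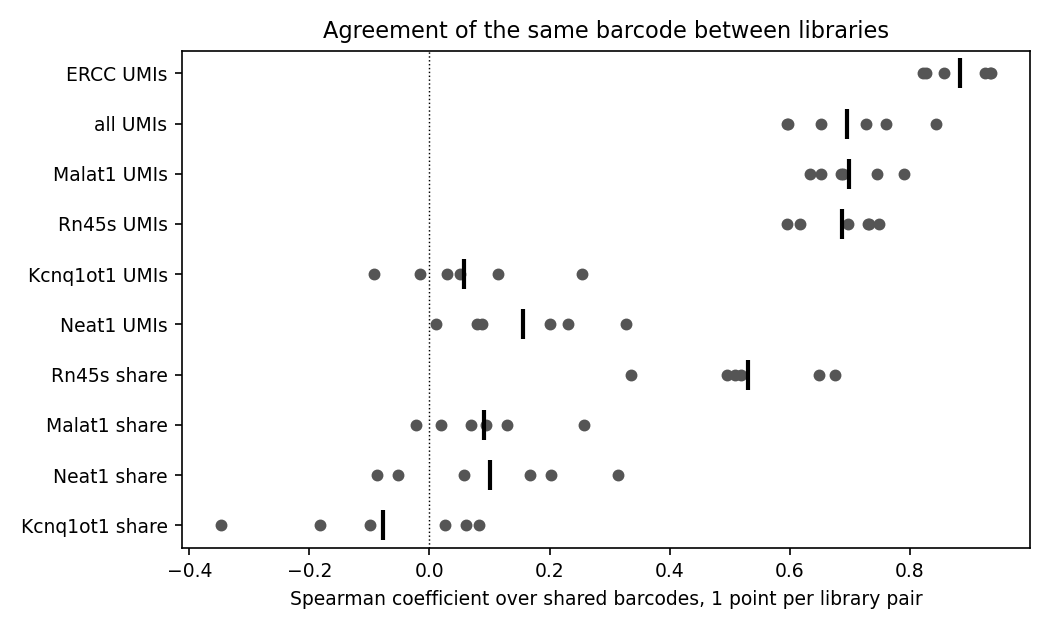
Spearman coefficient of the same quantity over cell barcodes shared by a pair of libraries, with 1 point for each of the 6 pairs and a bar at their mean. ERCC UMIs, all UMIs, Malat1 UMIs and Rn45s UMIs lie above 0.5, the Rn45s share from 0.34 to 0.68, and the other shares around 0.

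Malat1 was present in all 188 cells and spread over cells like the total, while the leading cells held more of Neat1 and Kcnq1ot1. Both had far fewer UMIs than Malat1, and genes with like counts were not set beside them. The 5 leading cells held 26.9% and 28.3% of the Malat1 UMIs in Mat KO, against 27.3% and 30.4% in WT. They held 43.7% and 47.4% of Neat1 in Mat KO, against 51.8% and 44.5% in WT. They held 59.6% and 38.6% of Kcnq1ot1 in Mat KO, against 49.1% and 44.8% in WT. For comparison, the 5 deepest cells held 29.7% to 32.1% of all UMIs. In Mat KO replicate 1, 1 cell carried 226 of the 758 Kcnq1ot1 UMIs. Among 60 genes present in every cell after thinning, the coefficient of variation of Malat1 averaged 0.435, rank 38 from the lowest, and that of Rn45s 0.483, rank 55, beside a median of 0.422.

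Pooled over lineages, cells rich in markers of another lineage had a lower median Malat1 share than lineage-low cells in every library. Their median was 1.34% and 0.943% in Mat KO, against 2.05% and 1.88% in lineage-low Mat KO cells. It was 0.527% and 1.06% in WT, against 2.29% and 1.56% in lineage-low WT cells. These classes rest on 7 to 16 marked cells per library and on limits chosen after the values were seen, and the ranges overlapped. The 3 cells above the limit for the erythroid list, all from WT replicate 2, had a median of 0.327% Malat1 at a median of 144247 UMIs. The pooled WT replicate 2 median rests on them. In that library 8 of the 12 genes of the erythroid list had a UMI. The globin genes Hba-a1, Hba-a2, Hbb-bs and Hbb-bt had none, so the list does not show these cells to be erythroid. The other marked cells of that library lay above its lineage-low median of 1.56%, at 1.83% in 2 granulocyte and monocyte cells and 2.67% in 3 B lymphoid cells. The highest Neat1 share of any cell, 0.469%, was in a WT replicate 2 cell rich in granulocyte and monocyte markers. The Malat1 share went with the summed share of the HSC markers, with a mean coefficient of 0.47 (0.33 to 0.65), and of 0.38 (0.18 to 0.60) in lineage-low cells.

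Likeness across cells was described on counts thinned to 8877 UMIs, over 806 genes with a UMI in at least 50% of thinned cells in every library. For Malat1 the 5 most alike were Hlf, Ifitm1, Tsc22d1, B2m and Tmem176b, with mean coefficients of 0.39, 0.38, 0.37, 0.36 and 0.34, beside a median of -0.02 over all. Hlf is a transcription factor of HSC and belongs to the HSC marker list, Ifitm1 is an interferon-induced membrane protein, and B2m is the light chain of MHC class I. All 5 were above 0 in each library, the weakest being Tsc22d1 at 0.13 in Mat KO replicate 2. At the other end, picked after their values were seen, Hmgb2 and Ran stood at -0.47 and H2afz at -0.42. Hmgb2 and H2afz encode chromatin proteins abundant in proliferating cells, and Ran is the GTPase of nuclear transport. Rn45s ranked 13th, Neat1 75th and Kcnq1ot1 99th in likeness to Malat1.

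For Neat1 the 5 most alike were Fos (0.27), Lst1 (0.25), Srsf11 (0.25), Klf10 (0.25) and Dnajb1 (0.24). Fos and Klf10 are early response transcription factors, and Dnajb1 is a heat shock co-chaperone. Beside them, the Neat1 share had a mean coefficient of 0.24 (0.19 to 0.32) with the summed share of 25 immediate early genes. Over all kept cells the Malat1 share had a higher one, 0.34 (0.18 to 0.43), so there the relation was not particular to Neat1. In lineage-low cells the order turned, with 0.21 (0.13 to 0.30) for Neat1 and 0.18 (-0.12 to 0.32) for Malat1. Malat1 ranked 27th in likeness to Neat1. For Kcnq1ot1 they were Ddx3x (0.36), Plcb2 (0.27), Tcf25 (0.26), Akap9 (0.25) and Cd63 (0.25). Ddx3x is an X-linked RNA helicase. With coefficients this small in sparse counts, the Neat1 and Kcnq1ot1 orders are descriptions of these cells alone. The weakest single-library value among the 5 was 0.08 for Neat1, with Fos and with Lst1, and 0.14 for Kcnq1ot1, with Cd63.

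**Figure D5:**
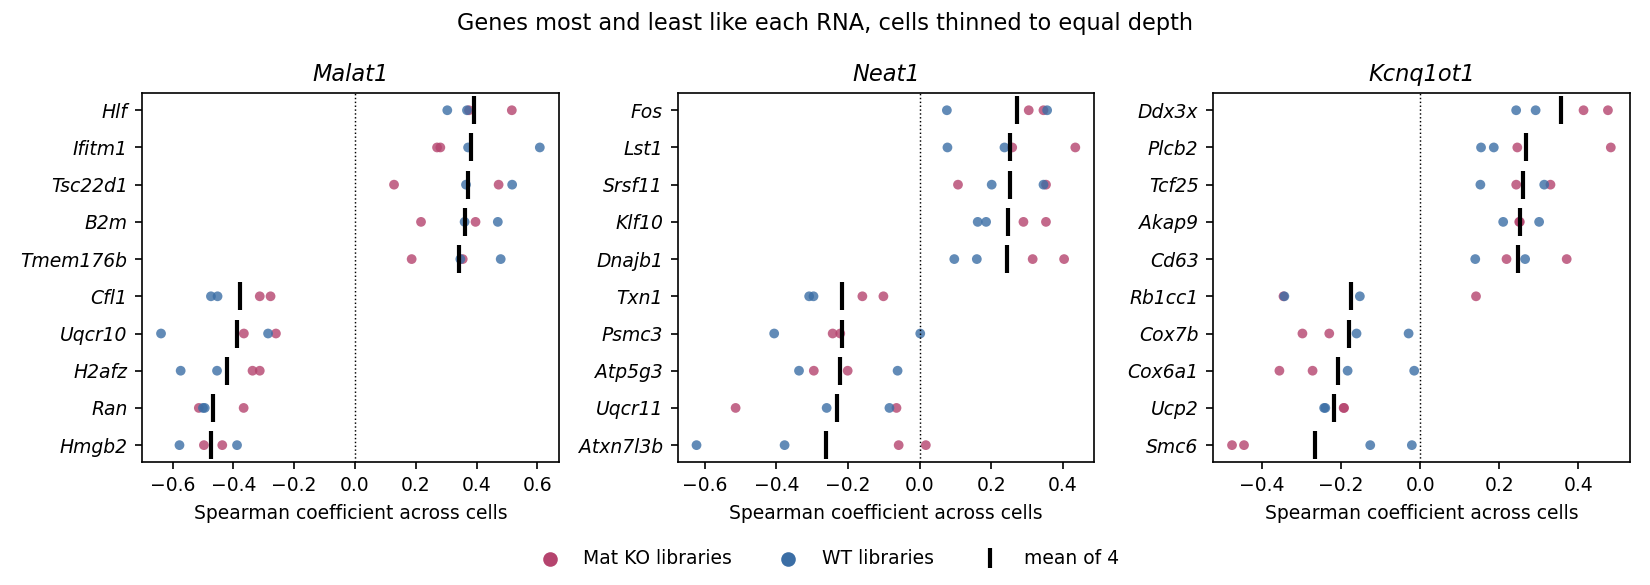
Spearman coefficient across thinned cells between each of the 3 RNAs and the 5 most and 5 least alike of 806 genes, with 1 point per library (Mat KO and WT in different colours) and a bar at the mean of 4. Hlf, at a mean of 0.39, leads for Malat1, Fos (0.27) for Neat1 and Ddx3x (0.36) for Kcnq1ot1.

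Genes of the bodies and pathways around these RNAs were counted in the same edgeR fit, and in 10 lists none of the tested genes passed in either direction. Of the 219 genes tested in these lists, 6 were higher and 10 lower in Mat KO at an unadjusted p under 0.05, which is 7.31% against 7.82% of all genes. DESeq2 called 1 of 218, the immediate early gene Klf6, or 0.459% against 1.15% of all genes. Of 36 nuclear speckle proteins tested, the median log2 fold change was 0.06, and of 29 paraspeckle proteins -0.15, beside -0.01 over all genes. The speckle scaffold Srrm2 stood at 867 and 570 CPM in Mat KO, against 497 and 418 CPM in WT (log2 fold change 0.68 ± 0.26, adjusted p = 0.578). The splicing factor Srsf2 stood at 275 and 180 CPM in Mat KO, against 369 and 362 CPM in WT (-0.66 ± 0.28, adjusted p = 0.602). In the speckle list the groups did not overlap for 24 of 36 genes, or 66.7%, against 39.1% of all genes, 20 of the 36 having a fold change above 0. Among paraspeckle genes the chromatin remodeller Smarca4 was at 0.85 ± 0.30 and the splicing factor Srsf10 at -0.63 ± 0.28.

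The machinery that makes the Malat1 3′ end had 13 genes tested with a median of -0.27. Its leading genes were Pop5 and Rpp14, both subunits of RNase P. Pop5 stood at 36.3 and 45.8 CPM in Mat KO, against 79.8 and 108 CPM in WT (-1.16 ± 0.42, adjusted p = 0.563). Rpp14 stood at 23.2 and 20.9 CPM in Mat KO, against 45.6 and 55.9 CPM in WT (-1.17 ± 0.54, adjusted p = 0.645). Neither passed. In both the Mat KO libraries were below the WT libraries, but groups did not overlap in 5 of the 13 genes, or 38.5%, close to the 39.1% of all genes. The 22 genes tested of polymerase II elongation and cleavage had a median of -0.05, led by the cyclin Ccnt1 (0.89 ± 0.32) and the cleavage factor subunit Cpsf1 (-1.17 ± 0.56). The 19 genes of nuclear RNA decay had a median of -0.16, led by the exosome subunits Exosc1 (-1.33 ± 0.60) and Exosc3 (-1.10 ± 0.51).

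Of 36 other long noncoding RNAs tested the median log2 fold change was -0.30, with 12 above 0 and 24 below. Dleu2 stood at 117 and 74.6 CPM in Mat KO, against 56.5 and 26.7 CPM in WT (1.23 ± 0.47, adjusted p = 0.584). Snhg9, a snoRNA host gene, stood at 44.2 and 55.4 CPM in Mat KO, against 128 and 74.7 CPM in WT (-0.99 ± 0.42, adjusted p = 0.610). The 11 genes tested of the imprinted domain around Kcnq1ot1 had a median of -0.54, led by the tetraspanins Tspan32 (-0.84 ± 0.31) and Cd81 (-0.54 ± 0.27). The 17 tested neighbours of Malat1 and Neat1 had a median of 0.24, although its leading genes, the mitochondrial ribosomal protein gene Mrpl49 (-2.36 ± 0.82) and Frmd8 (-0.94 ± 0.42), were lower in Mat KO.

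Of 25 immediate early genes the median was -0.18. Klf6, a zinc finger transcription factor, had the smallest p of any listed gene, at 729 and 677 CPM in Mat KO, against 363 and 308 CPM in WT (1.10 ± 0.23, adjusted p = 0.176). Fos, the gene most like Neat1 across cells, stood at 2668 and 1732 CPM in Mat KO, against 4406 and 2793 CPM in WT (-0.68 ± 0.24, adjusted p = 0.538). Neat1 is a known target of p53, and 14 other p53 targets tested had a median of 0.19. They were led by the cell death effector Bax (-1.17 ± 0.50) and the DNA polymerase Polk (-1.50 ± 0.83).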

How the data were processed

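Per the labels' protocols, a modified STRT-seq method was used, with an oligo-dT primer carrying a cell barcode and a UMI. The files deposited hold raw UMI counts for each gene and barcode, not normalized. Per the submitters' processing notes, TopHat2 2.0.12 and HTSeq were used with mm10. The strand setting of the counting and the treatment of multi-copy genes are not given in the sources used here, so reads of Kcnq1ot1 and of Kcnq1 cannot be told apart if strand was not used. Each table had 24506 rows, of which 92 ERCC and 3 marker construct rows stayed out of totals and tests. A barcode was kept if 1000 or more genes were detected, and no doublet caller was run on these singly picked cells.

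Counts of kept cells were summed per library and compared with edgeR 4.0.16 (R 4.3.3; quasi-likelihood test, TMM factors, filterByExpr, genotype alone, Benjamini-Hochberg adjustment at 0.05). Library medians were compared by exact two-sided permutation tests in Python 3.11.15, and relations across cells by Spearman coefficients within a library. Cells were thinned to 8877 UMIs, the 10th percentile, for detection and likeness. Limits for lineage-rich cells were 2% of UMIs for granulocyte and monocyte, 0.2% for B lymphoid, 0.5% for T and NK and 0.4% for erythroid markers. Named genes were the 3 RNAs, Rn45s, the 5 most like each and the 2 of smallest p in each list; Cdkn1c, Meg3 and Kcnq1 were added by role. The 3 RNAs and the lists were chosen with earlier results of these data known. Alternatives were DESeq2 1.42.0, other size factors and filters, each library left out, other cell filters, thinning, a replicate block and ERCC totals. Scripts were tested on simulated data.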

Additional observations from a re-analysis of the deposited data

Results flagged for a closer look

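Malat1 and Kcnq1ot1 had UMIs in barcodes that were given no cell, a part of the tables that no comparison used. Over the 192 such barcodes, Malat1 had 44 UMIs, in 37 barcodes, and Kcnq1ot1 had 4 UMIs, in 4 barcodes, where a limit of 3 counts was set. Malat1 made up 1.11% of the 3947 UMIs in these barcodes, against 1.60% in the kept cells. By library, such Malat1 UMIs numbered 3 and 6 for Mat KO, and 20 and 15 for WT. No value of a single gene was tested as an outlier, since each group had 2 libraries.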

How the results depend on the processing

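Of 241 recomputed values, 203 counted as the same, 22 moved, 9 reversed and 7 passed the threshold where the reported value had not. For fold changes the same meant the same sign and side of the threshold, and for coefficients a move below the spread among libraries. For shares per cell, spike-in ratios and detection it meant the same sign alone. Among these, the Neat1 and Kcnq1ot1 median shares in lineage-low and thinned cells counted as the same although the groups came to overlap. The cause of the changes was not tested. Fold changes are log2, Mat KO minus WT. None of the 3 RNAs passed 0.05 under 15 alternatives: Malat1 ranged from -0.43 (ERCC totals) to 0.25, Neat1 from -1.17 to 0.039, and Kcnq1ot1 from -0.81 to 0.013 (lineage-low cells). Leaving out 1 library gave -0.095 to 0.25 for Malat1, -1.17 to 0.039 for Neat1, -0.59 to -0.03 for Kcnq1ot1 and 0.48 to 0.97 for Rn45s. It gave -0.306 to 0.316 percentage points for the difference in median Malat1 share, -2.92 to 17.7 for Rn45s per 1000 ERCC UMIs, and -15.0 to 1.92 points for the thinned Neat1 detection. Rn45s passed with no filter (0.74), thinned cells (0.66), lineage-low cells (0.98), DESeq2 (0.77), the replicate block (0.73) and without either Mat KO replicate. Genes called numbered 149 with no filter, 120 with DESeq2, 17 to 123 without 1 library, 14 with ERCC totals, 5 with at least 2000 genes, 5 in lineage-low cells, 3 in thinned cells and 1 without the leading cell.

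The replicate block gave 0.09 for Malat1, -0.56 for Neat1, -0.30 for Kcnq1ot1 and 109 genes called. Deviations of same-numbered libraries had a correlation of -0.02. With 2 libraries a group the deviations mirror each other, so both numbers give this same value. The labels tie the numbers to no shared animal or day, and the correlation cannot tell whether one was shared.

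The Malat1 coefficient with total UMIs was -0.41 with at least 2000 genes, -0.17 in lineage-low cells and -0.44 thinned; with detected genes -0.54 and -0.56 (at least 2000 genes, thinned); with UMIs per ERCC UMI -0.54 thinned; with Rn45s 0.00498 in lineage-low cells. In lineage-low cells Neat1 gave 0.086 with total UMIs, 0.17 with detected genes and 0.094 with UMIs per ERCC UMI. Depth limits Neat1 and Kcnq1ot1, at 382 to 1979 UMIs a library.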
